A study of Mus musculus with 8 samples.

Results

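The comparison set the lungs of mice given both retinoic acid and dexamethasone, RA-Dex, against control lungs, Dil. Its members were the 2 arrays whose titles carry RA-Dex and the 2 whose titles carry Dil, so 4 of the 8 arrays of the series. Per the labels, mice 3 days old received retinoic acid or oil, and on day 4 dexamethasone or saline, after which the lungs were removed and snap frozen for RNA. RA-Dex lungs had received retinoic acid and then dexamethasone. The other groups were Dex (dexamethasone, taken here as oil on day 3), RA (retinoic acid, taken as saline on day 4) and Dil, which no label defines and which was taken as oil followed by saline because that is the one arm left. Each group had 2 arrays, with the letters a and b. Whether the letters stand for different mice, pools or repeat hybridizations is not stated, so the p-values here reflect no more than the spread between these arrays. The sources used here do not give doses, strain, sex or the interval between dexamethasone and collection.

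Septation is the outgrowth of ridges from the walls of the newborn's large air sacs, which divides them into alveoli. It needs dividing fibroblasts, elastic fibres laid down by myofibroblasts, and a capillary network that grows with the ridges. Dexamethasone activates the glucocorticoid receptor, a transcription factor that turns many genes on directly, slows cell division and is known to stop septation in newborn rodents. Retinoic acid acts through the retinoic acid receptors and is known to promote septation, which makes a lung given both drugs a test of what the retinoid changes in the glucocorticoid response.

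RNA of whole lung was measured on an Affymetrix array, on which a gene is read by 1 or more probe sets and the deposited value is a scaled signal with no unit. The median signal was 316 to 342 per array. Signals under a floor of 85.3 were set to it, which took in 23.4% to 25.7% of each array's probe sets. Across probe sets, log2 signals of RA-Dex and Dil arrays correlated at 0.951 to 0.965, against 0.975 between the RA-Dex arrays and 0.964 between the Dil arrays. The markers of lung were strong on every array, with Sftpc, the surfactant protein of type II cells, between 61590 and 84340. In bulk tissue, fewer cells of a type and less RNA per cell cannot be told apart. Some genes of skeletal muscle and squamous lining stood highest on the Dil arrays. Acta1, skeletal muscle actin, had signals of 79.0 and 492 in RA-Dex, 643 and 125 in Dex, 499 and 517 in RA, and 2198 and 1314 in Dil. Over the heart and skeletal muscle list, summed signals were 36456 to 36885 in RA-Dex, 30419 to 31903 in Dex, 36239 to 36721 in RA and 45254 to 47110 in Dil, so Dil was highest. Over the squamous list, they were 30695 to 37183 in RA-Dex, 36234 to 39977 in Dex, 28633 to 39206 in RA and 38202 to 43497 in Dil, which overlaps Dex and RA. Both Dil arrays stood above the other 6 in 12 of 38 muscle genes and 5 of 26 squamous genes on the array, against 5.44% of all probe sets. The pattern was not particular to these lists. It held for 6 of 20 interferon, 5 of 15 cholesterol, 4 of 13 elastic fibre and 10 of 44 cell cycle genes. It held for 0 of 43 glucocorticoid-responsive and 0 of 14 type II cell genes. Krt5 and Krt14, keratins of the basal layer, lay at or near the floor throughout.

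After both treatments, 293 of 7309 tested probe sets, or 4.01%, differed from Dil at an adjusted p under 0.05 (limma, Benjamini-Hochberg), which is called a change here. Of these, 188 were higher (2.57%) and 105 lower (1.44%). They included 189 that changed at least 2-fold, and 35 were at least 4-fold higher and 9 at least 4-fold lower. The signals of the 2 groups did not overlap for all 293, as was also so for 46.7% of all tested probe sets. The calls included rises in 27 of 37 tested glucocorticoid targets and 8 of 18 genes of growth arrest, and falls in 7 of 39 cell cycle genes and 5 of 12 interferon-stimulated genes. Over all 5618 genes tested, 156 rose and 86 fell (4.31% called), which is the share to set beside each list below. The 2 lists of rises overlap, with Cdkn1a, Cdkn1c, Gadd45b, Ddit4 and Sesn1 counted in both. Inmt was higher with each drug and highest after both, though its call with Dex alone was lost in several alternative runs.

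**Figure D1:**
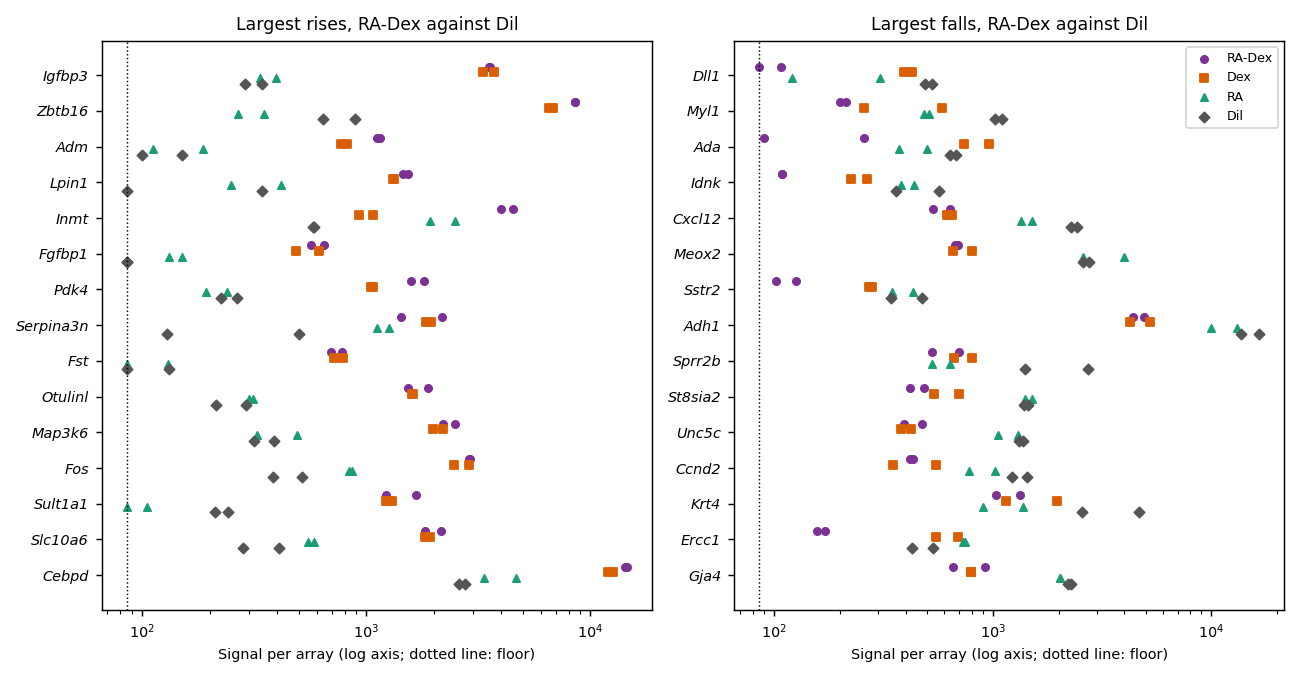
Signal on each array (horizontal log axis, no unit) for the 15 genes with the largest rises (left) and the 15 with the largest falls (right) in RA-Dex against Dil, with the 4 groups as colours and 2 points per group. The genes were chosen by this difference. In most rows on the left the Dex points lie with the RA-Dex points and the RA points with Dil. For Inmt the 4 groups lie apart, with RA-Dex at 3979 and 4502 and Dil at 577 and 585. The rows on the right are mixed. In Meox2 Dex lies with RA-Dex, in Dll1 Dex lies nearer Dil, and in Krt4 and Sprr2b Dil alone is high.

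Inmt encodes indolethylamine N-methyltransferase, an enzyme that adds methyl groups to tryptamine and related amines and is abundant in lung. Its signals were 3979 and 4502 in RA-Dex, 1071 and 927 in Dex, 1920 and 2482 in RA, and 577 and 585 in Dil. The 4 groups did not overlap, and RA-Dex was highest, then RA, then Dex, then Dil. The share of all tested probe sets with all 4 groups apart was not counted. A separation of this kind, also given below for Igfbp6, Ccnd1 and Gpx3, is therefore a description only. Against Dil it rose 7.29-fold in RA-Dex (log2 fold change 2.87 ± 0.185 SE, n = 2 arrays a group throughout, adjusted p = 1.63e-05 in limma). The log2 fold changes of the single drugs against the same Dil arrays were 0.78 for Dex (adjusted p = 0.0479) and 1.91 for RA (adjusted p = 0.00484). RA-Dex was also above Dex, by 2.09 (adjusted p = 0.00101), and above RA, by 0.96 (adjusted p = 0.0175). The test of whether the combined change departs from the sum of the single changes on the log2 scale, the interaction, gave 0.18 with a 95% interval of -0.40 to 0.75 (adjusted p = 0.952). A departure within that interval was not detectable with these arrays. The call against Dil held without any single array, whereas the step from RA was lost without RA replicate a (0.0952) or without either RA-Dex array (0.085 for a and 0.174 for b). The rise with Dex alone was lost without any single Dex, Dil or RA-Dex array (0.0865 to 0.297). With no intensity trend in the fit, the call of RA alone (0.0502), that of Dex alone (0.118) and the step from RA (0.0622) were lost, as they were with no filter on dim probe sets (0.0618, 0.15 and 0.0875). The call of Dex alone was also lost in limma with a pseudocount in place of the floor (0.0593) and with the replicate block (0.084).

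Inmt was 1 of 2 probe sets, 0.0274% of those tested, that differed from Dil, from Dex and from RA in the same direction. The other, Ercc1, encodes a subunit of the nuclease that cuts damaged DNA in nucleotide excision repair. Its signals were 158 and 172 in RA-Dex, 694 and 552 in Dex, 747 and 731 in RA, and 530 and 427 in Dil. The RA-Dex arrays lay below the other 6, as in 6.06% of all tested probe sets, and no single treatment was below Dil. Ercc1 fell to 0.345 of its level in Dil (log2 fold change -1.53 ± 0.252, adjusted p = 0.00612), whereas Dex had 0.38 (adjusted p = 0.56) and RA 0.64 (adjusted p = 0.563) against Dil. The interaction was -2.55 with a 95% interval of -3.33 to -1.76, which did not pass after adjustment over all probe sets (adjusted p = 0.0795). Without RA-Dex replicate a the fall against Dil was lost (adjusted p = 0.0509), and the step from Dex was lost without RA-Dex replicate a (0.203), RA-Dex replicate b (0.141), Dex replicate a (0.19) and Dex replicate b (0.0865).

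The promoter windows of these 2 genes, 250 bases before to 50 bases after the annotated start, are shown because they are the pair that moved beyond both single drugs (RefSeq, GRCm38.p6). That of Inmt lies at chr6:55174941-55175240 on the minus strand, and the capitals mark 2 copies of a 46-base direct repeat, at positions 16 to 61 and 62 to 107 of the window. That of Ercc1 lies at chr7:19344821-19345120 on the plus strand, and the capitals mark the 50 bases from the annotated start.
Inmt: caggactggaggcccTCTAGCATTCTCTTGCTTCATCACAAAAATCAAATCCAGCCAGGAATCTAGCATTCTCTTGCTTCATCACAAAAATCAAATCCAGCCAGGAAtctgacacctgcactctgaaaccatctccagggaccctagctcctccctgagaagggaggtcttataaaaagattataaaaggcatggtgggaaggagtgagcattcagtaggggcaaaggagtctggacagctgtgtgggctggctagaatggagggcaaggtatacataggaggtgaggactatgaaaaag
Ercc1: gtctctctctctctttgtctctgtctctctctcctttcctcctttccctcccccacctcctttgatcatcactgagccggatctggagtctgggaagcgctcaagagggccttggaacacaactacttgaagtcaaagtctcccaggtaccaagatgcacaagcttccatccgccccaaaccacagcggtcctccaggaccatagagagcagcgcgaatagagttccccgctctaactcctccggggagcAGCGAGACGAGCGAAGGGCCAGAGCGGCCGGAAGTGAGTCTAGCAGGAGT
A repeat of at least 46 bases was found in 82 of 32851 promoter windows (0.25%). Both strands were searched for the glucocorticoid receptor hexamers AGAACA and TGTTCT set 3 bases apart, for the looser pair GNACA and TGTNC at the same distance, which includes the first, and for the retinoic acid receptor hexamers AGGTCA or GGTTCA repeated with 1, 2 or 5 bases between. Neither window held a match, and matches were in 0.00913%, 0.475% and 0.25% of all promoter windows.

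Across all tested probe sets the interaction passed for 1 (0.0137%; 409 had an unadjusted p under 0.05), Erdr1, a transcript of a multicopy erythroid differentiation regulator that the RefSeq table lists on chromosome X as a transcribed pseudogene. Its probe set matches a sequence family, so copies cannot be separated. Its signals were 5591 and 5723 in RA-Dex, 260 and 307 in Dex, 14029 and 12291 in RA, and 7064 and 8363 in Dil. RA-Dex lay a little below Dil (log2 fold change -0.44 ± 0.159, adjusted p = 0.18), while Dex was far below every other array. The interaction was 3.55 with a 95% interval of 3.06 to 4.05 (adjusted p = 6.8e-05), and RA-Dex was above Dex by 4.32 (adjusted p = 2.33e-07).

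Ctse, cathepsin E, an aspartic protease named after its values were seen, had the opposite course. One of its probe sets had signals of 703 and 647 in RA-Dex, 2325 and 2947 in Dex, 541 and 671 in RA, and 699 and 1174 in Dil. Its log2 fold change was -0.43 in RA-Dex against Dil (adjusted p = 0.463), 1.53 in Dex against Dil (0.00807) and -1.96 in RA-Dex against Dex (0.0154). The second Ctse probe set had -0.58 (0.149), 0.93 (0.0286) and -1.51 (0.0154) in the same comparisons. Both probe sets stood highest in Dex, with no overlap with the other 6 arrays. RA-Dex differed from Dex in 7 probe sets in all (0.0958%), which were those of Inmt, Ercc1, Erdr1 and Ctse and 2 with no gene name here. The unnamed pair was also low in Dex. One of them had 1751 and 1611 in RA-Dex, 494 and 510 in Dex, 3188 and 2315 in RA, and 2038 and 1912 in Dil.

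**Figure D2:**
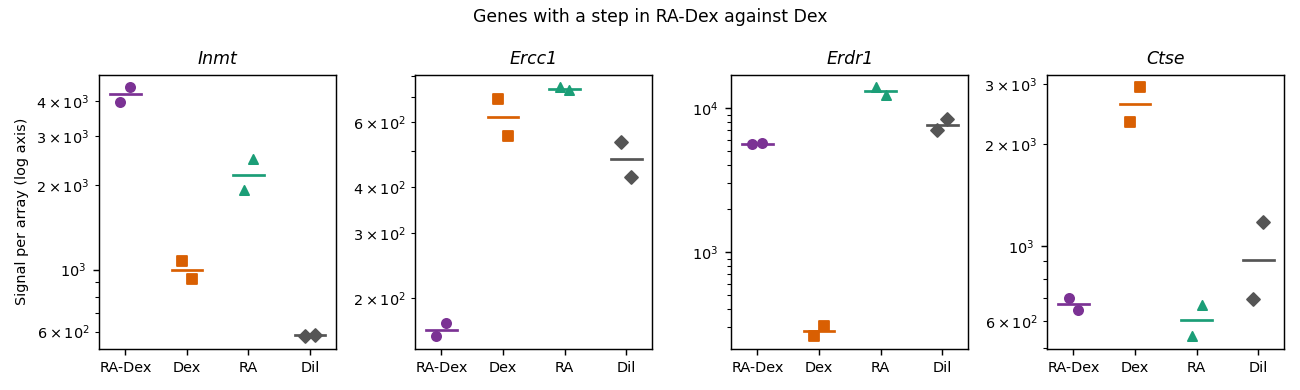
Signal per array (vertical log axis, no unit) of the 4 named genes that differed between RA-Dex and Dex, with 2 points per group and a line at the mean of the log2 signals. For Ctse the first of its 2 probe sets is shown. Inmt stands highest in RA-Dex, then RA, Dex and Dil, Ercc1 is low in RA-Dex (158 and 172), Erdr1 is low in Dex (260 and 307) and Ctse is high in Dex (2325 and 2947).

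Each single drug was also set against the same Dil arrays. Dex against Dil gave 236 calls (3.23%). Of these, 172 (72.9%) were also called in RA-Dex against Dil in the same direction, where the Dil arrays are shared. The other 64 were not called in RA-Dex against Dil, among them Erdr1, the 2 Ctse probe sets and the unnamed pair. These 5 were the ones also called in the opposite direction in RA-Dex against Dex. RA against Dil gave 2 calls (0.0274%), the rise of Inmt and the fall of an unnamed probe set whose signals were 88.9 and 117 in RA-Dex, 97.3 and 77.0 in Dex, 104 and 92.6 in RA, and 4484 and 1447 in Dil. That probe set was high in Dil alone. RA-Dex against RA gave 256 calls (3.5%).

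Of the 293 probe sets called in RA-Dex against Dil, 121 were called in neither single treatment. Of these, Ercc1 was the one that also differed between RA-Dex and Dex, and none passed the interaction in limma, so their single-drug values are given without a claim that they differ. Mcm3, Sqle, Ldb2 and Isg15 had the smallest p among them, and Ldb2, an adaptor of LIM-domain factors, is named here after its values were seen. Mea1, Pitpnb and Brca2, named after their values were seen, were among the larger falls (log2 fold changes -2.29, -2.47 and -1.44). The Mea1 and Pitpnb values come from probe sets that are not the brightest of their genes. Mea1 had 147.9 and 114.7 in RA-Dex, near the floor, and 615.1 and 660.5 in Dil (adjusted p = 0.0285 in limma). Brca2 had 132.2 and 172.1 in RA-Dex and 398.1 and 418.1 in Dil (adjusted p = 0.0358 in limma). Mbd1, a protein that binds methylated DNA, was among the larger rises (2.04).

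Known targets of the glucocorticoid receptor rose together after both treatments. Of 37 tested (43 on the array), 27 rose (73.0%, against 4.31% over all 5618 genes tested) and the other 10 did not pass. The list, like the others, was set with earlier results of these data known, so its share is not independent support. Some of its genes are counted again in later lists, such as Igfbp3, Adm, Cdkn1a, Lcn2, Sgk1, Pdk4, Per1 and Mt1. The count of 27 became 19 with no filter, 20 with the replicate block and 21 with no intensity trend. Over the 37 tested, the median log2 fold change was 1.51 in RA-Dex, 1.24 in Dex and 0.13 in RA, each against Dil, beside -0.05 over all genes in RA-Dex. Zbtb16, a zinc-finger repressor, had 8492 and 8557 in RA-Dex, 6817 and 6532 in Dex, 350 and 268 in RA, and 642 and 892 in Dil. It rose 11.3-fold in RA-Dex (3.49 ± 0.199, adjusted p = 1.16e-05), and both RA arrays lay below both Dil arrays. Fkbp5, a cochaperone that holds the same receptor back, had 6732 and 6463 in RA-Dex, 6440 and 5917 in Dex, 900 and 1134 in RA, and 1422 and 1519 in Dil, a rise of 4.49-fold (2.17 ± 0.161, adjusted p = 3.47e-05). Cebpd, a transcription factor of acute responses, rose 5.41-fold (adjusted p = 1.98e-05), and Ddit4, which holds back growth signalling through mTORC1, rose 4.55-fold (adjusted p = 2.59e-05). Dusp1, the phosphatase that switches off MAP kinases, had 10329 and 8552 in RA-Dex and 4660 and 3779 in Dil (1.16 ± 0.155), and Nfkbia, which holds NF-kappaB in the cytoplasm, had 9477 and 7652 in RA-Dex and 2357 and 3087 in Dil (1.66 ± 0.184). Dusp1 and Nfkbia were named after their values were seen. Tsc22d3, an induced target in many cells, and Nr3c1, the receptor, were too dim to test, with Nr3c1 at 77.8 and 81.0 in RA-Dex and 57.7 and 143 in Dil.

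Of 17 retinoid genes tested, Adh1, an alcohol dehydrogenase that also oxidizes retinol, fell, and 16 did not pass (median 0.17). The called share of 5.88% was near the 4.31% over all genes tested. Adh1 had 4367 and 4905 in RA-Dex, 5251 and 4228 in Dex, 9965 and 13153 in RA, and 13589 and 16564 in Dil. The RA-Dex and Dex arrays lay together below the rest, and the fall in RA-Dex was to 0.308 (-1.70 ± 0.177, adjusted p = 0.000387). Crabp2, which delivers retinoic acid to its receptors, was under the floor on all 4 arrays compared, so its values have no order.

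**Figure D3:**
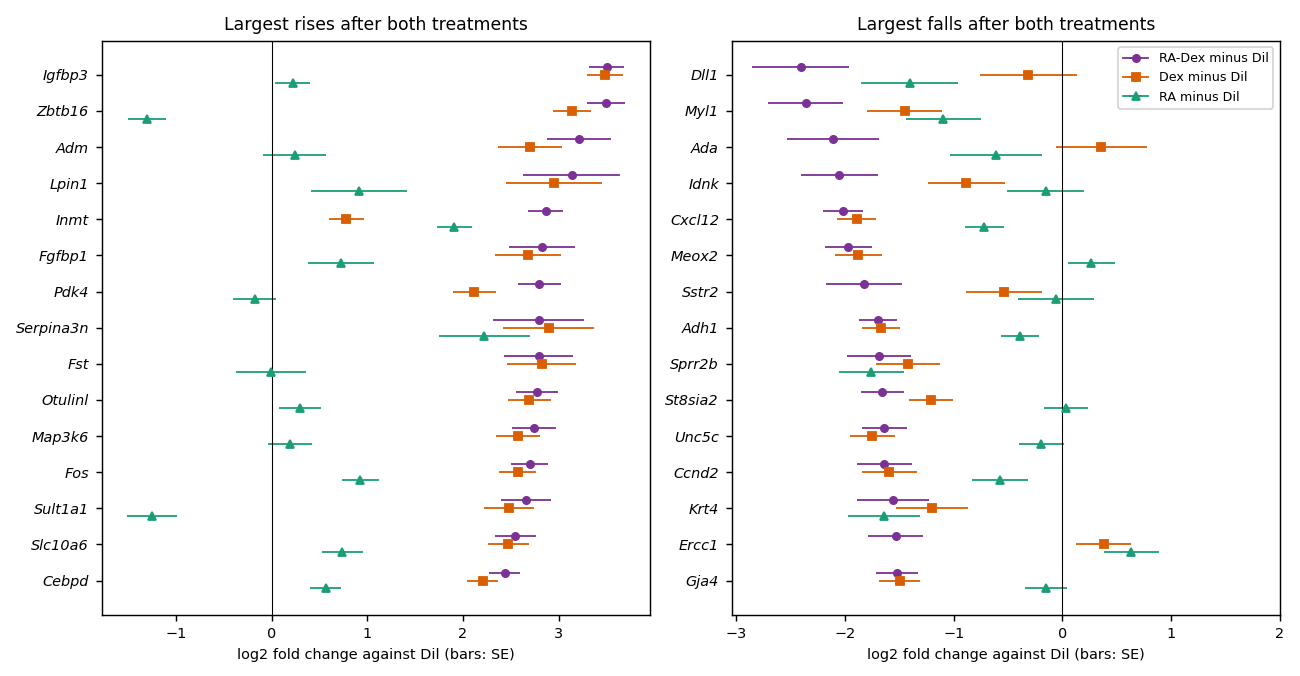
Log2 fold change against Dil (horizontal axis, points, with SE bars) of RA-Dex, Dex and RA for the 15 largest rises (left) and falls (right) in RA-Dex. The 3 comparisons share the Dil arrays. Igfbp3 is at 3.50 in RA-Dex and 3.49 in Dex, Inmt at 2.87, 0.78 and 1.91 in RA-Dex, Dex and RA, and Ercc1 is below 0 in RA-Dex alone.

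Among 28 tested genes for growth factors of septation and their receptors, 4 rose, 2 fell and 22 did not pass (median -0.26). The called share was 21.4%, against 4.31% over all genes tested. All 4 that rose encode proteins that bind growth factors, as does Igfbp4, which fell. Igfbp3, the main carrier of insulin-like growth factors in blood, had 3513 and 3569 in RA-Dex, 3321 and 3697 in Dex, 397 and 334 in RA, and 286 and 342 in Dil, and rose 11.3-fold (3.50 ± 0.186, adjusted p = 1.13e-05). Igfbp6, which prefers insulin-like growth factor 2, had 5170 and 4596 in RA-Dex, 2933 and 3267 in Dex, 2677 and 2431 in RA, and 1374 and 1502 in Dil. No group overlapped another in Igfbp6, with RA-Dex highest and Dil lowest, a pattern whose share over all tested probe sets was not counted. Its log2 fold changes against Dil were 1.76 ± 0.154 in RA-Dex (adjusted p = 0.000119), 1.11 in Dex (0.00245) and 0.83 in RA (0.14). The interaction was -0.17, with a 95% interval of -0.65 to 0.31, and the step from Dex to RA-Dex did not pass (0.66, adjusted p = 0.501). Fst, follistatin, which blocks activin, had 775 and 697 in RA-Dex and 25.5 and 132 in Dil, with Dil replicate a at the floor. Fgfbp1, a carrier that frees fibroblast growth factors from the matrix, had 564 and 648 in RA-Dex against 66.9 and 33.5 in Dil, both at the floor, and so was at least 7.09-fold higher, counting Dil at the floor (adjusted p = 0.000946). The falls were in Fgfr4, a fibroblast growth factor receptor needed together with Fgfr3 for septation in mice, and Igfbp4, a further carrier. Fgfr4 fell to 0.494 (-1.02 ± 0.216, adjusted p = 0.0264) and Igfbp4 to 0.633 (-0.66 ± 0.139, adjusted p = 0.0259), and both were named after their values were seen. Fgfr4 lost its call without Dil replicate a (0.0734), Dil replicate b (0.15) or RA-Dex replicate b (0.226). Igfbp4 lost it without any single Dil, Dex or RA-Dex array (0.0562 to 0.196).

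Pdgfa, the factor that recruits septal myofibroblast precursors, had 2694 and 2440 in RA-Dex and 3451 and 4110 in Dil (-0.55 ± 0.151, adjusted p = 0.0743). Its receptor Pdgfra had 4870 and 4327 in RA-Dex and 2963 and 2828 in Dil (0.67 ± 0.168, adjusted p = 0.0552), and its other probe set had the opposite sign. Neither passed. The groups did not overlap in either gene, as in 46.7% of all tested probe sets. Eln, elastin, had 59251 and 49424 in RA-Dex and 39709 and 51797 in Dil, which overlap (0.25 ± 0.146, adjusted p = 0.436). Of 12 elastic fibre genes, Lox, which crosslinks elastin and collagen, rose and 11 did not pass (8.33% called, against 4.31% over all genes tested). Lox had 3750 and 4333 in RA-Dex, 2647 and 3392 in Dex, 1327 and 1091 in RA, and 1039 and 890 in Dil, a rise of 4.19-fold (2.07 ± 0.19, adjusted p = 0.000174), with 1 other probe set of opposite sign. Of 16 collagen genes, 0 passed in limma, and 1 was higher and 2 were lower at an unadjusted p under 0.05. The smooth muscle list had a called share of 7.69%, against 4.31% over all genes tested. In the smooth muscle list of 13, Actg2, an actin of visceral muscle, fell (-0.63 ± 0.146, adjusted p = 0.0383), and it lost its call without any single Dil, Dex or RA-Dex array (0.0576 to 0.226).

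In the vessels, 1 of 34 tested genes rose, 1 fell and 32 did not pass (median 0.03), and the called share of 5.88% was near the 4.31% over all genes tested. Adm, adrenomedullin, a peptide that widens vessels, had 1155 and 1116 in RA-Dex, 821 and 770 in Dex, 187 and 112 in RA, and 99.4 and 151 in Dil, and rose 9.27-fold (3.21 ± 0.333, adjusted p = 0.000386). Gja4, a connexin that couples arterial endothelial cells, had 922 and 661 in RA-Dex, 796 and 792 in Dex, 2020 and 2024 in RA, and 2290 and 2200 in Dil, and fell to 0.348 (-1.52 ± 0.191, adjusted p = 0.0011). Kdr, the main receptor of vascular endothelial growth factor on endothelium, had 1369 and 1191 in RA-Dex, 807 and 810 in Dex, 2178 and 1879 in RA, and 1765 and 1605 in Dil. RA-Dex lay between Dex and Dil without overlap. Its log2 fold change in RA-Dex against Dil was -0.40 ± 0.173 (adjusted p = 0.281), and RA-Dex was above Dex by 0.66, with a 95% interval of 0.28 to 1.04, which did not pass after adjustment (adjusted p = 0.693). Flt1, a second receptor of the same factor, had -0.18 ± 0.214 (adjusted p = 0.75), and its other probe set had the opposite sign.

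Mesenchymal transcription factors of development gave 2 falls among 25 tested genes (8% called, against 4.31% over all genes, of which 86 of 5618 fell; median -0.13). Meox2, a homeobox factor of mesenchyme and vessels, had 674 and 691 in RA-Dex, 658 and 802 in Dex, 4001 and 2584 in RA, and 2754 and 2590 in Dil, and fell to 0.255 (-1.97 ± 0.218, adjusted p = 0.000536). Sox4, a factor of progenitor cells, had 2203 and 1871 in RA-Dex and 4396 and 4766 in Dil (-1.17 ± 0.168, adjusted p = 0.00264). In both genes RA-Dex and Dex lay together and RA lay with Dil. Of 10 tested chemokine and adhesion genes, 2 fell (20%, against 4.31% called over all genes tested) and 8 did not pass. Cxcl12, the chemokine that draws CXCR4-bearing cells, fell to 0.247 (-2.02 ± 0.182). Vcam1, an adhesion molecule for leukocytes, had 238 and 475 in RA-Dex, 398 and 375 in Dex, 1253 and 1501 in RA, and 1198 and 685 in Dil (-1.43 ± 0.343, adjusted p = 0.044), and lost its call without RA-Dex replicate a (0.253), Dil replicate a (0.205) or any single Dex or RA array (0.0509 to 0.0688). Other large falls were those of Unc5c, a netrin receptor (to 0.321, -1.64 ± 0.207), and St8sia2, which adds polysialic acid to cell surface proteins (to 0.317, -1.66 ± 0.201). Dll1, a ligand of Notch, had 68.2 and 108 in RA-Dex, 429 and 391 in Dex, 120 and 306 in RA, and 527 and 492 in Dil, with RA-Dex replicate a at the floor. Its log2 fold change of -2.41 ± 0.449 (adjusted p = 0.0131) lost its call without RA-Dex replicate a (0.0953), RA-Dex replicate b (0.069), Dil replicate a (0.0709) or Dil replicate b (0.0768).

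Some cell cycle genes fell after both treatments. Of 39 tested, 7 fell (17.9%, against 86 of 5618 over all genes tested) and 32 did not pass. Of the 39 log2 fold changes, 38 were below 0, where 3158 of the 5618 genes tested were. The median was -0.50 in RA-Dex, -0.13 in Dex and -0.46 in RA against Dil. Summed over the list, signals were 42286 and 41525 in RA-Dex, 51320 and 50899 in Dex, 43630 and 45249 in RA, and 59973 and 61099 in Dil, so RA-Dex was lowest and Dil highest with no overlap between groups. The called falls were in the step that licenses and starts DNA replication and in D cyclins. Mcm3, a subunit of the replicative helicase, had 821 and 864 in RA-Dex, 1228 and 1351 in Dex, 1660 and 1930 in RA, and 2276 and 1903 in Dil (-1.30 ± 0.177, adjusted p = 0.0018). Its partners Mcm2, Mcm5 and Mcm7 had -1.15, -1.17 and -1.04, and Cdc6, which loads the helicase, had -1.10. Ccnd1, the cyclin that couples growth factors to entry into the cycle, had 1135 and 1128 in RA-Dex, 1678 and 1714 in Dex, 2429 and 2286 in RA, and 2763 and 2834 in Dil. The Ccnd1 groups did not overlap, and the log2 fold change was -1.31 ± 0.15 in RA-Dex (adjusted p = 0.000682), -0.72 in Dex (0.028) and -0.25 in RA (0.737). Ccnd2, a second D cyclin, had 433 and 419 in RA-Dex, 351 and 550 in Dex, 778 and 1021 in RA, and 1229 and 1432 in Dil (-1.64 ± 0.254, adjusted p = 0.00448). Mitotic genes such as Cdk1, Plk1 and Mki67 did not pass. They had -0.30, -0.26 and -0.38 in RA-Dex against Dil, and were named after their values were seen. At an unadjusted p under 0.05 in limma, 17 of the 39 genes were lower and 0 were higher. Whether mitotic genes fell less than licensing genes was not tested. The count of 7 became 4 without RA-Dex replicate a or Dil replicate b, 3 with no filter, and 2 without RA-Dex replicate b. The calls of Mcm2, Mcm5, Mcm7, Cdc6 and Ccnd2 were each lost when RA-Dex replicate b was left out (0.0862, 0.0861, 0.103, 0.197 and 0.0567), while Mcm3 and Ccnd1 kept theirs without any single array. Mcm2 and Mcm7 were also lost without RA-Dex replicate a (0.0527 and 0.0833) or Dil replicate b (0.0741 and 0.103), and Mcm5 without RA-Dex replicate a (0.0515) or Dil replicate a (0.0538). Cdc6 was lost without any single Dex, Dil or RA-Dex array (0.0576 to 0.197).

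Several inhibitors of the cycle rose, some of them also counted in the glucocorticoid list. Over all 5618 genes tested, 156 rose. Of 18 tested genes of growth arrest, 8 rose (44.4%) and 10 did not pass (median 0.57; 5 rose without RA-Dex replicate b or with no filter). Cdkn1a, the p21 inhibitor of cyclin-dependent kinases, had 2456 and 2697 in RA-Dex, 2444 and 1855 in Dex, 556 and 629 in RA, and 655 and 610 in Dil, and rose 4.07-fold (2.03 ± 0.192, adjusted p = 0.000213). Gadd45g, a stress gene that inhibits Cdk1, rose 4.55-fold, and Sesn1, which restrains mTORC1, rose 2.80-fold. Gas1, a membrane protein of arrested cells, had 2485 and 2750 in RA-Dex and 1198 and 1076 in Dil, 2.30-fold higher (adjusted p = 0.00273; 0.0503 without RA-Dex replicate b). For these 4 genes the RA-Dex and Dex arrays lay above all RA and Dil arrays.

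**Figure D4:**
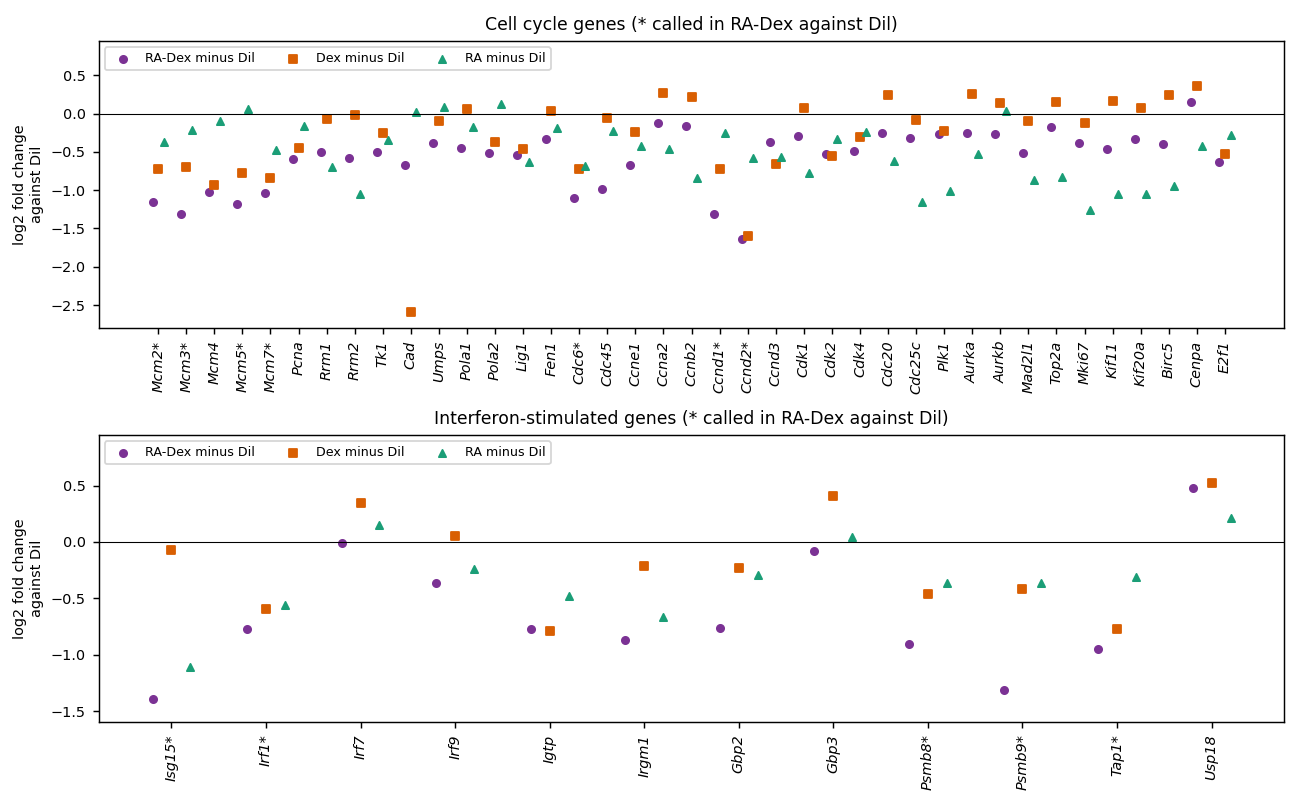
Log2 fold change against Dil (vertical axis) of each tested gene of the cell cycle list (top) and of the interferon list (bottom) in RA-Dex, Dex and RA, with no error bars. An asterisk marks a call in RA-Dex against Dil: 7 of 39 cell cycle genes and 5 of 12 interferon genes, each lower.

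Some genes induced by interferon fell after both treatments. Of 12 tested (20 on the array), 5 fell (41.7%, against 86 of 5618 over all genes tested) and 7 did not pass. The medians were -0.77 in RA-Dex, -0.22 in Dex and -0.34 in RA. Isg15, a ubiquitin-like protein, had 482 and 406 in RA-Dex, 1277 and 959 in Dex, 581 and 501 in RA, and 1104 and 1222 in Dil. Isg15 was low in both groups that had received retinoic acid, with a log2 fold change of -1.39 ± 0.218 in RA-Dex (adjusted p = 0.00458), -0.07 in Dex (0.93) and -1.11 in RA (0.177). Psmb9, a subunit of the immunoproteasome, had 190 and 207 in RA-Dex, 386 and 354 in Dex, 352 and 417 in RA, and 454 and 537 in Dil, and fell to 0.402 (-1.32 ± 0.279, adjusted p = 0.0264). Psmb8, its partner subunit, fell to 0.533, and Tap1, which pumps peptides to class I molecules, fell to 0.518, with 1 other Tap1 probe set of opposite sign. In these 4 genes the RA-Dex arrays were below all others, as in 6.06% of all tested probe sets. Irf1, a transcription factor of interferon responses, had 1003 and 939 in RA-Dex, 1141 and 1055 in Dex, 1272 and 995 in RA, and 1561 and 1750 in Dil, with RA-Dex and RA overlapping (-0.77 ± 0.186, adjusted p = 0.0468). It lost its call without any single Dex, Dil or RA-Dex array (0.0807 to 0.268). The count rested on single arrays: it was 0 without RA-Dex replicate b and 1 without RA-Dex replicate a, Dil replicate a or Dil replicate b, and 2 with no filter. Isg15 lost its call when RA-Dex replicate b was left out (0.0687). Psmb8, Psmb9 and Tap1 were lost without any single RA-Dex or Dil array (0.0528 to 0.233). Beside them, Tyrobp, an adaptor of myeloid cells, had 1050 and 1009 in RA-Dex and 1731 and 2036 in Dil (-0.87 ± 0.175, adjusted p = 0.0204). It lost its call without RA-Dex replicate a (0.105), RA-Dex replicate b (0.154) or Dil replicate b (0.15). Of 14 macrophage genes tested, Tyrobp fell, Chil3, a chitinase-like protein of activated macrophages, rose, and 12 did not pass. Chil3 had 391 and 431 in RA-Dex, 546 and 516 in Dex, 342 and 412 in RA, and 206 and 122 in Dil (1.37 ± 0.322, adjusted p = 0.0403), and it lost its call without any single Dex or RA-Dex array or without Dil replicate b (0.0714 to 0.254). Summed signals of the macrophage list were 23877 to 25764 in RA-Dex, 25403 to 25525 in Dex, 31153 to 31811 in RA and 29033 to 29287 in Dil. Those of the B cell list were 10295 to 11781 in RA-Dex, 8291 to 9369 in Dex, 11973 to 12300 in RA and 13693 to 16218 in Dil. The part of these cells in the interferon result was not tested.

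In the other marker lists of blood cells no more than single genes passed. Of 8 B cell genes 0 passed in limma (2 were lower at an unadjusted p under 0.05), of 4 T cell genes 0 (1 was higher) and of 7 erythroid genes 0 (likewise 0 unadjusted). The T cell receptor gene Cd3e and Cd8a were under the floor on all 8 arrays. Rag1, of the same marker set, was above it, with 1335 and 957 in RA-Dex, 685 and 570 in Dex, 725 and 756 in RA, and 724 and 856 in Dil. Lcn2, the iron-binding lipocalin of neutrophils and stressed epithelium, had 5569 and 6015 in RA-Dex, 4494 and 4321 in Dex, 2723 and 3089 in RA, and 2332 and 1964 in Dil, and rose 2.70-fold (1.44 ± 0.152, adjusted p = 0.000404), with 1 other probe set of opposite sign. The neutrophil granule gene S100a8 had 1514 and 2435 in RA-Dex and 2245 and 1250 in Dil, which overlap.

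Few epithelial markers passed the test. Hopx, a nuclear cofactor of type I cells, was the gene that rose among 7 of that list. It had 20239 and 19571 in RA-Dex, 20177 and 18501 in Dex, 15352 and 14940 in RA, and 11957 and 9595 in Dil (0.89 ± 0.133, adjusted p = 0.00325; 0.0523 with no intensity trend, 0.0663 with no filter). Of 13 type II cell genes, Lpcat1, which makes surfactant phosphatidylcholine, fell to 0.599 (adjusted p = 0.0269), and 12 did not pass. The called share of this list was 7.69%, against 4.31% over all genes tested. Lpcat1 lost its call without any single RA-Dex or Dil array (0.0959 to 0.171). Of 7 airway genes, Cyp4b1, a cytochrome P450 of club cells, rose 1.85-fold, with 9585 and 8892 in RA-Dex and 5020 and 4959 in Dil (adjusted p = 0.0034; 0.0508 without RA-Dex replicate a). Of 12 tested genes of ion, water and fluid transport, 2 rose, 1 fell and 9 did not pass (25% called, against 4.31% over all genes tested). The rises were those of Sgk1, a kinase that raises sodium uptake (0.62 ± 0.135, adjusted p = 0.0297), and Nedd4l, a ubiquitin ligase of the sodium channel (0.93 ± 0.2, adjusted p = 0.0285), and both were lost without any single RA-Dex or Dil array (0.085 to 0.197). Car2, a carbonic anhydrase, fell to 0.597 (adjusted p = 0.00604; without RA-Dex replicate a 0.0646, without RA-Dex replicate b 0.0657).

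Fuel and lipid genes divided. Of 16 genes of lipid storage and fuel choice, 3 rose (18.8%, against 4.31% called over all genes tested) and 13 did not pass. Pdk4, the kinase that holds back glucose oxidation, had 1584 and 1815 in RA-Dex, 1066 and 1047 in Dex, 240 and 193 in RA, and 264 and 225 in Dil, and rose 6.96-fold (2.80 ± 0.225, adjusted p = 6.5e-05). Lpl, the lipase that releases fatty acids from lipoproteins, rose 4.80-fold (0.0727 with no filter). Lpin1, a phosphatase of glycerolipid synthesis, had 1537 and 1460 in RA-Dex and 341 and 53.9 in Dil, with Dil replicate b under the floor (3.13 ± 0.504, adjusted p = 0.00532). Its call was lost without RA-Dex replicate a (0.0585), RA-Dex replicate b (0.0664), and in the fit with no filter (0.189). Of 12 tested genes of cholesterol synthesis, Sqle fell and 11 did not pass (8.33% called, against 4.31% over all genes tested). All 12 log2 fold changes were below 0 (median -0.39), as were 3158 of the 5618 over all genes. Sqle, squalene epoxidase, had 688 and 700 in RA-Dex, 1051 and 1014 in Dex, 1105 and 1214 in RA, and 1950 and 1512 in Dil. RA-Dex lay below the other 6 arrays, as in 6.06% of all tested probe sets, and both Dil arrays lay above the rest, as in 6.2%. The log2 fold changes were -1.31 ± 0.187 in RA-Dex (adjusted p = 0.00259), -0.73 in Dex (0.0648) and -0.57 in RA (0.457), and the interaction was -0.01, with a 95% interval of -0.59 to 0.58.

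Early response and clock genes rose in part. Of 16 immediate early genes, 5 rose (31.2%, against 4.31% called over all genes tested) and 11 did not pass. Fos, a subunit of the AP-1 factor, had 2880 and 2895 in RA-Dex, 2450 and 2859 in Dex, 833 and 859 in RA, and 519 and 383 in Dil, and rose 6.48-fold (2.70 ± 0.192, adjusted p = 2.59e-05). Ccn2, a matrix protein of fibroblasts, rose 2.43-fold (0.0585 with no filter). Ccn1, its relative, had 1048 and 1149 in RA-Dex, 617 and 705 in Dex, 532 and 534 in RA, and 573 and 518 in Dil (1.01 ± 0.198, adjusted p = 0.0173). RA-Dex stood above the other 6 arrays, as in 4.71% of all tested probe sets. Ccn1 lost its call without any single RA-Dex or Dil array (0.0527 to 0.174), and its interaction did not pass (0.77, adjusted p = 0.832). The count of 5 became 2 without RA-Dex replicate a, RA-Dex replicate b or Dil replicate b or with no filter. Of 13 clock genes, Per1, a repressor of the clock and a direct glucocorticoid target, had 2393 and 2187 in RA-Dex and 611 and 688 in Dil (1.82 ± 0.2, adjusted p = 0.000535). The repressors Per2 and Nfil3 had 1.51 and 1.11 (adjusted p = 0.0316 and 0.0264), and both were lost without any single RA-Dex or Dil array (0.076 to 0.238) and with no filter (0.11 and 0.113), and Per2 also without either Dex array (0.0616 and 0.0587).

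Of 16 tested genes for proteases and their inhibitors, 4 rose (25%, against 4.31% called over all genes tested) and 12 did not pass (median -0.05). They were the inhibitors Timp3 and Serpina3n and the lysosomal proteases Ctsh and Ctsl. Timp3, which inhibits metalloproteinases in the matrix, had 8326 and 9166 in RA-Dex, 7288 and 7105 in Dex, 4819 and 3612 in RA, and 3854 and 3305 in Dil (1.29 ± 0.164, adjusted p = 0.00117; 0.0504 with no filter). Ctsh had 14332 and 14390 in RA-Dex and 7228 and 6165 in Dil (1.11 ± 0.146, adjusted p = 0.00149; 0.0503 with no filter). Ctsl had 0.78 ± 0.163 (adjusted p = 0.0258) and lost its call without any single RA-Dex or Dil array (0.0549 to 0.196). The count of 4 became 1 with no filter and 2 without RA-Dex replicate b. Serpina3n, an inhibitor of serine proteases made in acute responses, had 1428 and 2181 in RA-Dex, 1847 and 1952 in Dex, 1261 and 1120 in RA, and 501 and 129 in Dil. All 6 treated arrays of Serpina3n were above both Dil arrays (2.79 ± 0.475 in RA-Dex, adjusted p = 0.00764; with no filter 0.208, and 0.108 where RA-Dex replicate b was left out). Gpx3, a secreted glutathione peroxidase, had 16642 and 14931 in RA-Dex, 13044 and 12843 in Dex, 5898 and 5435 in RA, and 3913 and 4118 in Dil, with the 4 groups apart in that order. It rose 3.93-fold (1.97 ± 0.127, adjusted p = 1.63e-05) and was 1 of 3 rises among 24 tested metallothionein and antioxidant genes (median 0.02, 12 above 0 and 12 below), beside the metallothioneins Mt1 and Mt2, which were both lost without any single RA-Dex or Dil array.

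**Figure D5:**
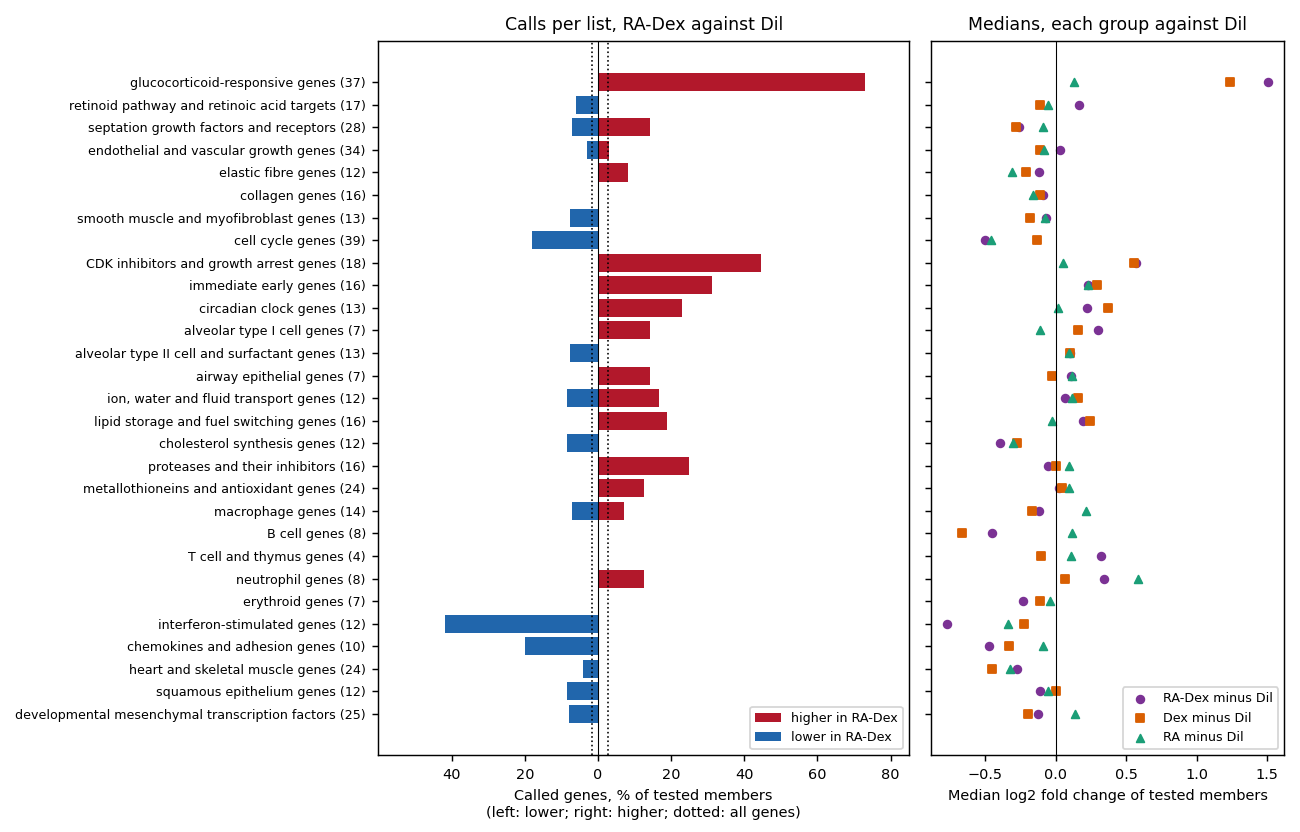
Left, share of the tested members of each of 29 gene lists (number tested in brackets) called higher (right of 0) or lower (left of 0) in RA-Dex against Dil, with dotted lines at the shares over all 5618 genes. Right, median log2 fold change of the tested members in RA-Dex, Dex and RA against the shared Dil arrays. The glucocorticoid-responsive list stands at 73.0% called and a median of 1.51, and the interferon list at 41.7% and -0.77. Some genes are in more than 1 list, and the lists were set with earlier results of these data known.

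Some large falls were in single genes of muscle and squamous lining. Of 24 tested heart and skeletal muscle genes, Myl1 fell and 23 did not pass (4.17% called). Of 12 squamous genes, Krt4 fell and 11 did not pass (8.33% called). The share over all genes tested was 4.31%. Myl1, a light chain of fast skeletal myosin, had 201 and 213 in RA-Dex, 589 and 257 in Dex, 487 and 509 in RA, and 1028 and 1100 in Dil (-2.36 ± 0.344, adjusted p = 0.00284; 0.107 with no filter). Krt4, a keratin of internal squamous lining, had 1039 and 1326 in RA-Dex, 1968 and 1155 in Dex, 1372 and 898 in RA, and 4680 and 2553 in Dil (-1.56 ± 0.332, adjusted p = 0.0269). Sprr2b, a small proline-rich protein of the same lining, had 703 and 527 in RA-Dex, 666 and 803 in Dex, 638 and 527 in RA, and 2724 and 1411 in Dil (-1.69 ± 0.297, adjusted p = 0.00935). In all 3 genes the Dil arrays were above the other 6, as they were for Acta1. Krt1, a keratin of skin named after its values were seen, had 30.1 and 264 in RA-Dex, 416 and 181 in Dex, 333 and 253 in RA, and 222 and 259 in Dil, and so was not highest in Dil. Krt13, the usual partner of Krt4, had 14.4 and 165 in RA-Dex and 1092 and 350 in Dil. Krt4 lost its call without RA-Dex replicate a (0.171), RA-Dex replicate b (0.109) or Dil replicate a (0.138), and Sprr2b without RA-Dex replicate b (0.119) or Dil replicate a (0.0544). The part of muscle and squamous tissue in these falls was not tested.

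The remaining large changes were in enzymes, carriers and receptors. Sult1a1, a sulfotransferase of phenols and drugs, had 1218 and 1668 in RA-Dex, 1218 and 1306 in Dex, 71.8 and 105 in RA, and 210 and 242 in Dil (2.66 ± 0.261, adjusted p = 0.000264), so that RA lay below Dil. Slc10a6, a carrier of sulfated steroids, rose 5.84-fold, Map3k6, a kinase of stress signalling, rose 6.70-fold, and Otulinl, a relative of the deubiquitinase OTULIN, rose 6.82-fold. In these 3 genes the RA-Dex and Dex arrays lay above all RA and Dil arrays. Ada, adenosine deaminase, had 89.6 and 258 in RA-Dex, 960 and 742 in Dex, 372 and 499 in RA, and 639 and 677 in Dil (-2.11 ± 0.421, adjusted p = 0.019). Its call was lost without RA-Dex replicate a (0.0784), Dil replicate a (0.0704) or Dil replicate b (0.103). Sstr2, a somatostatin receptor, had 126 and 102 in RA-Dex, 272 and 282 in Dex, 433 and 345 in RA, and 342 and 473 in Dil (-1.83 ± 0.348, adjusted p = 0.0146). Idnk, a gluconate kinase, had 108 and 109 in RA-Dex, 266 and 224 in Dex, 379 and 434 in RA, and 360 and 566 in Dil (-2.06 ± 0.355, adjusted p = 0.00808). Sstr2 and Idnk were both lost without RA-Dex replicate a (0.0527 for each), RA-Dex replicate b (0.111 and 0.0651) or Dil replicate b (0.13 and 0.0956). In Ada, Sstr2 and Idnk the RA-Dex arrays were below the other 6, as in 443 of 7309 tested probe sets (6.06%). The interaction of each had an adjusted p of 0.811 to 0.892.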

How the data were processed

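Total RNA of mouse lung was measured on 8 Affymetrix arrays. The authors' deposited values are intensity signals, 1 per probe set and array, scaled to a trimmed mean of 800.4 on every array; the sources used here do not give the scaling software. Groups came from the sample titles. Signals under 85.3 (pooled 25th percentile) were set to that floor and taken as log2. After 66 control probe sets were left out, 7309 of 12422 probe sets had a mean above 200.8 (pooled 40th percentile) and were tested with limma 3.58.1 in R 4.3.3 (1 mean per group, all 8 arrays, eBayes with intensity trend, two-sided, 4 residual and 6.69 prior degrees of freedom), with Benjamini-Hochberg adjustment over all tested probe sets. Symbols came from the array annotation of 2016, updated by Entrez ID (10833 probe sets with 1 symbol, 10817 matched, 396 with several, 1193 with none); a gene stands by its brightest probe set.

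Genes named were the 15 largest rises and falls without overlap between groups, 4 members at most of each of 29 lists by p, genes beyond both single treatments, and a set always given; others are marked. The members and lists were chosen with earlier results of these data known. Alternatives were quantile normalization, other filters, a pseudocount, no intensity trend, 4 arrays, the replicate letter as a block, and leaving out each array. The procedure was tested on simulated data. Array number limits the precision.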

Additional observations from a re-analysis of the deposited data

Results flagged for a closer look

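In these arrays, the difference in Erdr1 signal between lungs with and without dexamethasone depended on the day 3 treatment. Subtracting the effect in mice given oil first from the effect in mice given retinoic acid first left 3.55 on the log2 scale, and this interaction passed under every alternative run (adjusted p = 6.8e-05 as reported, and 0.00958 with no intensity trend). The log2 fold change of Erdr1 was -1.22 after retinoic acid (RA-Dex against RA) and -4.77 without it (Dex against Dil), in 2 of 2 Dex arrays. The Dex arrays stood apart from the other 6 in this probe set, which matches a sequence family. Whether the 2 Dex arrays come from different mice is not stated. An unusual Dex sample and a treatment effect therefore cannot be told apart.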

How the results depend on the processing

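All 293 calls in RA-Dex against Dil rest on 2 arrays a group, and the number of arrays limits every count. Direction was kept by all 147 named genes tested in every alternative run for them (0 reversed), but most of this was fixed in advance. The filter, trend and block runs leave the log2 fold changes as they are. Leaving out 1 array cannot reverse a called gene, because its 2 groups do not overlap. Of the 82 called, 32 stayed called in each run. The 293 calls (188 higher, 105 lower) became 147 (88 and 59) with no filter, of which 102 were among the 293, 165 (110 and 55) with no intensity trend, of which 161 were, and 195 (135 and 60) with the replicate block, of which 194 were. They ranged from 93 (70 higher, 23 lower) without RA-Dex replicate b to 334 (213 and 121) without RA replicate a; the count was 128 without RA-Dex replicate a, 184 without Dil replicate a and 143 without Dil replicate b. The interaction gave 22 with no filter and 1 to 2 when 1 array was left out. The 2 probe sets beyond both single treatments became 5 with no filter, where Inmt and Ercc1 were lost, 1 with no intensity trend or the stricter filter, and 0 to 2 when 1 array was left out (0 without RA-Dex replicate a). Dex against Dil gave 96 with no filter, 112 with no intensity trend and 80 to 273 with 1 array left out; RA against Dil 11, 0 (1 with the stricter filter) and 2 to 16; RA-Dex against Dex 16, 3 and 2 to 7; RA-Dex against RA 143, 126 and 81 to 250. No filter tests more probe sets, and leaving an array out removes 1 sample; the cause of the other shifts was not tested. Deviations of same-letter arrays correlated at -0.221 to 0.136 over the tested probe sets, so no strong pairing by letter was seen. These correlations cannot exclude a pairing that touches fewer probe sets. With the letter as a block, the calls in Dex against Dil numbered 171 and those in RA-Dex against RA 186.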
